A study of Mus musculus with 16 samples.

Results

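The comparison of induced Prdm1 deletion with its control covered 8 of the 16 samples of the series, all of them primordial germ cells (PGCs) taken from gonads of C57BL/6 mouse embryos at E11.5 (embryonic day). They were chosen by their labels, 4 as Prdm1 conditional knockout (CKO) and 4 as control. Both groups carried Prdm1(flox/flox) and Rosa26(neo-EYFP/+), and both came from females injected with 4-hydroxytamoxifen (4-OHT) at 10.5 dpc, 3 mg per 25 g of body weight. Only the CKO-labelled embryos carried Dppa3-MCMP(Tg/0), the transgene that drives an inducible Cre recombinase from Dppa3, a germ cell gene. The controls therefore received the drug without the Cre, and no group had Cre with intact Prdm1 alleles. The protocol names a sort for EYFP and a sort with an antibody against SSEA-1 without tying either to a group. Whether the sort differed between the groups is therefore not known here. If it did, its effect cannot be told apart from that of the genotype in any comparison below. The 8 other libraries, wild-type PGCs with a Dppa3-EGFP reporter collected at E10.5, E11.5 or E13.5, are used below only for levels.

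PGCs are the embryonic precursors of eggs and sperm. PRDM1, also called BLIMP1, is a zinc finger repressor that recruits histone-modifying corepressors to DNA. It is required when PGCs are first set aside in the epiblast, and in lymphocytes and other tissues it silences programmes of competing fates. By E11.5 PGCs have entered the gonads, where they proliferate while much of their DNA methylation is removed.

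Transcripts were counted by 3′ RNA sequencing of amplified cDNA and given as RPM, a measure relative to the gene-assigned reads of a library and not divided by gene length. The floxed libraries held about 2797000 to 5032000 reads and 9062 to 10032 genes at 5 RPM or more, and 3 reads corresponded to 0.596 to 1.07 RPM. Nothing in the labels ties a replicate to its own embryo or litter, so a p-value here reflects only the spread among these samples, which may be technical. All 10 PGC markers, such as Pou5f1 and Dppa3, were present, with a summed level of 3956 to 4367 RPM in the controls and 3532 to 4004 RPM in the CKO-labelled libraries. Of 15 gonadal somatic and mesenchymal markers 3 reached 5 RPM in 4 libraries, and the list summed to 35.6 to 213.8 RPM in the controls and 55.1 to 641.6 RPM in the CKO-labelled libraries. The highest sums were those of CKO-labelled libraries 4 (641.6 RPM) and 1 (236.2 RPM). Their part in the results was not tested beyond the fits given below, without those libraries or with the marker sum as a covariate. Endothelial markers summed to 98.0 to 165 RPM in the controls and 111 to 188 RPM in the CKO-labelled libraries, erythroid markers to 1.18 to 63.0 and 1.79 to 77.5 RPM, and mesonephric epithelium markers to 26.2 to 89.3 and 20.4 to 56.8 RPM, so these ranges overlapped. The highest endothelial sum was that of CKO-labelled library 4. The endothelial marker Kdr, picked after its values were seen, was at 4.88, 0, 0 and 16.8 RPM in CKO-labelled libraries 1 to 4. It reached at most 3.58 RPM in a control, so sums that overlap do not show that every marker was alike. Macrophage markers summed to at most 19.7 RPM and Sertoli and pre-granulosa markers to at most 12.5 RPM in any library. In such bulk samples, fewer cells of a type and less RNA per cell cannot be told apart. Prdm1 itself (Entrez 12142, chr10:44437174-44528558, GRCm38/mm10) was listed at 63.3 ± 9.33 and 82.5 ± 5.5005 RPM (SD, n = 4 each), with every CKO-labelled library above every control. It did not pass the test (log2 difference 0.39 ± 0.12, SE; adjusted p = 0.164). Since a 3′ tag may map outside the segment removed by Cre, this value is no check of deletion or labels, and each direction below rests on the labels.

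Far more genes were higher than lower in the CKO-labelled libraries. Most of those that rose had been at low or moderate levels in the controls, as were most genes tested. By the test, 228 (2.43%) of 9384 genes were called, 181 higher (1.93%) and 47 lower (0.501%), with limma on log2(RPM + 1) at a Benjamini-Hochberg adjusted p under 0.05. Fold changes below are differences on that log2 scale, where the added 1 RPM shrinks changes at low levels, and stand in parentheses with their SE. Values with ± elsewhere are group means in RPM with their SD (n = 4 each). For every called gene whose 8 values are given below, all CKO-labelled libraries lay on 1 side of all controls. Among the called genes, 111 were at least 2-fold higher and 11 at least 2-fold lower. Before adjustment, 1125 of the 9384 genes had p under 0.05, the share to set beside such counts for single lists below. The median log2 difference was 1.10 for the genes called higher, -0.75 for those called lower and -0.01 for all genes tested. Of the 181 genes called higher, 18 had a control mean under 2 RPM, 50 a mean of 2 to 10, 100 a mean of 10 to 100 and 13 a mean of at least 100 RPM. Of the 47 called lower, 38 had control means of 10 to 100 RPM and 9 of at least 100 RPM. Among the 9384 genes tested, 1088 had a mean of 100 to 200 RPM over the 8 libraries and 874 of at least 200 RPM. Genes called higher made up 2.73% of genes tested with such a mean under 10 RPM, 2.16% at 20 to 50 and 0.801% at 200 or more. The filter asked for 5 RPM in at least 4 of the 8 libraries, so a gene low in both groups was not tested. The groups did not overlap for 224 of the 228 called genes, nor for 769 (8.19%) of all genes tested, of which 407 were higher and 362 lower with the CKO label.

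**Figure D1:**
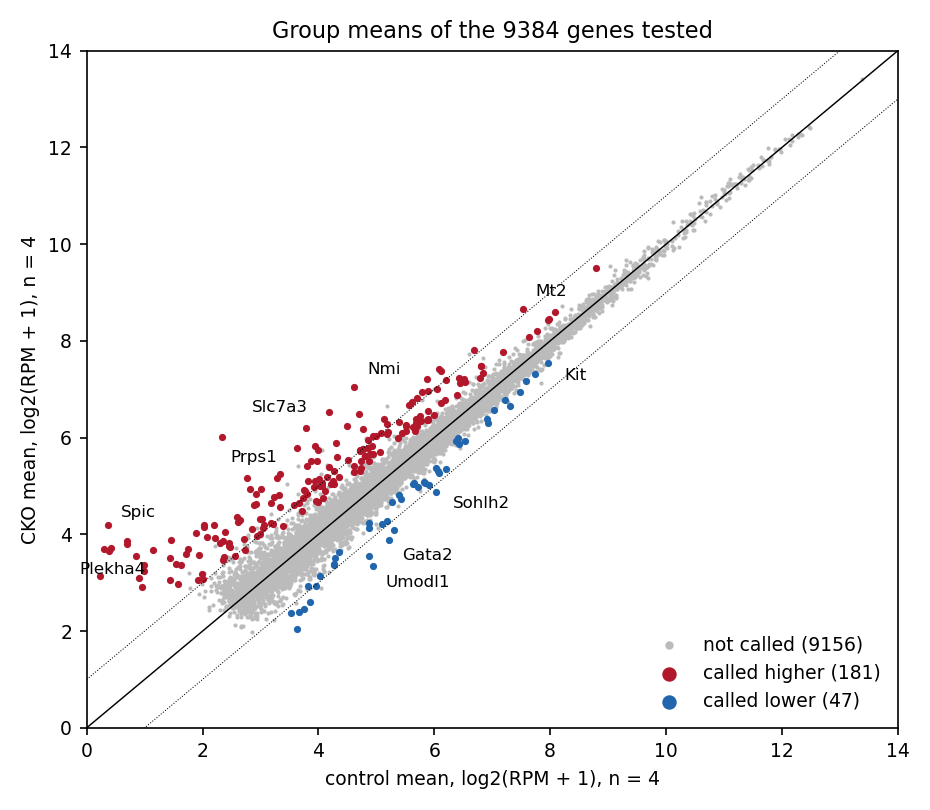
Mean of the control libraries (x) against mean of the CKO-labelled libraries (y) for each of the 9384 genes tested, both as log2(RPM + 1), n = 4 each. The solid line marks equal means and the dotted lines a difference of 1 on the log2 scale. Red points, called higher (181), spread far above the line at low control levels, and blue points, called lower (47), lie closer to it.

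The number of calls moved with the libraries in the fit. Without CKO-labelled replicate 2 it was 137 (119 higher, 18 lower), and without CKO-labelled replicates 1 and 4 together, those with the most somatic signal, 98 (78 higher, 20 lower). Of the 181 genes called higher 105 were called in every one of the 8 fits that left out 1 library, as were 13 of the 47 called lower, and no called gene changed direction in any fit. Among genes named below that held in all of those 8 fits, the calls of Aff1, Armcx1, Capsl, Dirc2, Foxo1, Lrrfip1, Oasl2, Phc2, Psmb10, Tcf7l1 and Fam162a were lost without CKO-labelled replicates 1 and 4.

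Some genes that were close to silent in the controls were present in every CKO-labelled library. In 17 named genes with a control mean under 2 RPM that were called higher, the CKO-labelled libraries reached means of 6.57 to 17.2 RPM. Each had at least 5 RPM in all 4 CKO-labelled libraries. Such genes passed the filter only through the CKO-labelled group, so their call follows in part from the filter, and their number is a description and no support. In the whole table, 61 genes had a control mean under 2 RPM and a CKO mean of at least 5 RPM, against 4 genes with the reverse. Only 19 of the 61 were at 5 RPM or more in every CKO-labelled library, and 0 of the 4 were so in every control. Of the 42 that were not tested, 30 were highest in CKO-labelled replicate 4 and 8 in replicate 1, the libraries with most somatic signal. The 18 called genes, 1 of them unnamed, were highest in replicates 1 to 4 in 4, 4, 4 and 6 cases, and 13 of the 18 were still called without replicates 1 and 4.

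Spic (Entrez 20728, chr10:88675269-88683023) encodes an ETS-family transcription factor known for its role in red pulp macrophages of the spleen. Control libraries 1 to 4 gave 0.294, 0.199, 0.438 and 0.236 RPM and CKO-labelled libraries 1 to 4 gave 17.2, 17.1, 19.8 and 14.7 RPM. The sums were 5 reads in the controls and 270 in the CKO-labelled libraries. The groups were far apart, with a log2 difference of 3.81 ± 0.24 (SE, adjusted p = 1.92e-06). All macrophage markers together summed to 4.37 to 19.7 RPM in the CKO-labelled libraries.

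Klf9 and Klf4 are Krüppel-like transcription factors, the second of them a known PRDM1 target in other tissues and a reprogramming factor. Klf9 was listed at 0.589, 0.995, 0.219 and 0.707 RPM in the controls and at 14.9, 8.94, 14.1 and 16.4 RPM in the CKO-labelled libraries (3.15 ± 0.28, adjusted p = 3.31e-05). Klf4 was listed at 2.06, 1.19, 1.53 and 2.12 RPM in the controls and at 10.9, 10.7, 10.3 and 9.65 RPM in the CKO-labelled libraries (2.08 ± 0.24, adjusted p = 0.0002301). The SD of Klf4 over the CKO-labelled libraries, 0.5596 RPM, was the smallest of this group relative to the mean. Of 18 genes on a list of PRDM1 targets known from other tissues, only 6 were tested. Klf4 was the 1 called, against 2.43% of all genes tested. Like the other near-silent genes it passed the filter only through the CKO-labelled libraries, so its call is no support. Id3 (240.5 ± 22.9 and 245 ± 9.21 RPM) and Tcf7 (33.2 ± 11.1 and 41.7 ± 10.4 RPM) did not pass the test.

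The remaining genes of this low group have varied roles. Plekha4 encodes a phosphoinositide-binding adaptor, and was listed at 0.294, 0.199, 0.438 and 0 RPM in the controls and 9.75, 10.3, 16.6 and 11.1 RPM in the CKO-labelled libraries (4 against 183 reads). Upp1, uridine phosphorylase, was listed at 0.589, 0.199, 0.438 and 0 RPM in the controls and 12.1, 8.74, 15.2 and 10.4 RPM in the CKO-labelled libraries. Tcirg1 encodes a subunit of the vacuolar proton pump. Its controls were at 0, 0.398, 0.219 and 0.707 RPM and its CKO-labelled libraries at 6.04, 16.3, 12.9 and 13.2 RPM, where replicate 1 was the lowest. Bak1 encodes a pore-forming cell death protein of the BCL2 family. It was listed at 0.589, 0.995, 0.876 and 2.36 RPM in the controls and at 11.1, 10.9, 10.9 and 13.9 RPM in the CKO-labelled libraries (2.58 ± 0.28, adjusted p = 0.0001604).

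Syt6, a synaptotagmin, rose from 0.617 ± 0.302 to 12.98 ± 2.84 RPM, and Itpka, an inositol trisphosphate kinase, from 0.798 ± 0.6601 to 10.7 ± 1.69 RPM. Apobec3, a cytidine deaminase that restricts retroviruses, rose from 1.895 ± 0.329 to 9.41 ± 2.01 RPM, and Oasl2, an interferon-induced gene, from 0.978 ± 0.871 to 9.28 ± 3.58 RPM. Bcl3, an atypical IκB protein that partners NF-κB, rose from 0.859 ± 0.244 to 7.57 ± 1.54 RPM. Syngr1, a synaptic vesicle membrane protein, rose from 0.983 ± 0.141 to 8.45 ± 1.34 RPM, and Aff1, a component of transcription elongation complexes, from 0.938 ± 0.788 to 6.57 ± 1.04 RPM. Armcx1 rose from 1.75 ± 2.17 to 13.8 ± 7.65 RPM, with CKO-labelled replicate 4 at 25.02 RPM and control replicate 2 at 4.97 RPM. The calls of Sema6a, a semaphorin (1.701 ± 1.93 to 7.301 ± 1.85 RPM), and Ncs1, a neuronal calcium sensor (1.98 ± 1.04 to 6.88 ± 0.5905 RPM), were lost in 6 and 3 of the 8 fits that left out 1 library. The 15 other named genes were called in all 8.

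**Figure D2:**
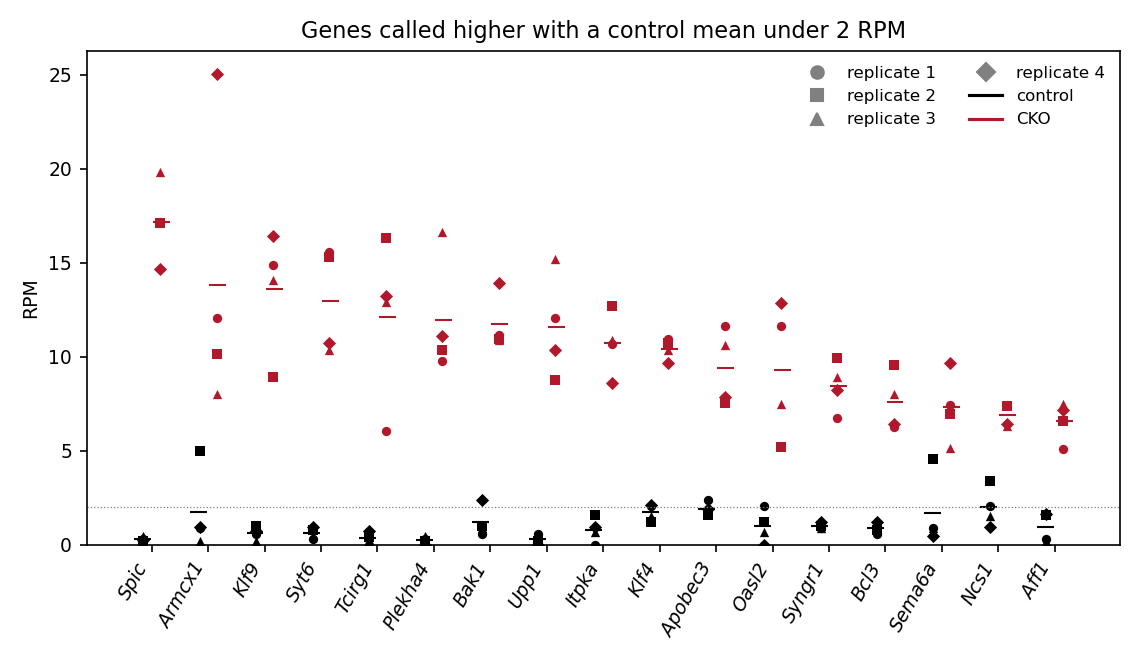
RPM in each of the 8 libraries for the 17 named genes called higher with a control mean under 2 RPM. Black symbols are control and red symbols CKO-labelled libraries, marker shapes give the replicate, short bars the group means and the dotted line 2 RPM. Controls reach at most 4.97 RPM and CKO-labelled libraries 5.11 to 25.02 RPM.

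In wild-type PGCs at E11.5, in a separate table, 13 of the 18 also averaged under 2 RPM, and 6 did so at all of E10.5, E11.5 and E13.5 in either sex. Spic did not exceed 1.42 RPM in any of the 8 wild-type libraries, nor Bcl3 0.9604 RPM. Syngr1 differed from this: it was at 7.67 to 15.7 RPM in every wild-type library, close to its level in the CKO-labelled rather than the control libraries of the floxed table. Klf4 was at 7.74 to 13.2 RPM in the 4 wild-type libraries of E13.5. The tables were deposited separately, and levels set across them are not a test.

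PRDM1 is known to bind DNA through a core of letters GAAAGTG, which overlaps the element GAAANNGAAA bound by interferon regulatory factors. Both motifs were searched on both strands of RefSeq promoters (GRCm38.p6, 250 bases before to 50 after each annotated start), found for 7364 of the 9384 genes tested. A match to the PRDM1 core lay in a promoter of 11 of 144 genes called higher (7.64%), of 2 of 36 called lower (5.56%) and of 395 of 7364 genes tested (5.36%). The interferon element matched in 12 of the 144 (8.33%), in 2 of the 36 (5.56%) and in 239 of the 7364 (3.25%). Among the 17 near-silent genes with a promoter, 3 held the core (Itpka, Aff1 and Tcirg1) and 5 the interferon element. A match is a description of these letters in this window and no evidence of binding, and both motifs share GAAA, so that some matches overlap. The promoters of those 3 genes are shown because they join a match to a near-silent control level, and that of Erap1 because its matches lie across the annotated start. Erap1 was chosen after its values were seen. Capitals mark the matches, read in the direction of the gene, with CACTTTC as the core on the opposite strand.
Itpka (chr2:119742087-119742386, plus strand): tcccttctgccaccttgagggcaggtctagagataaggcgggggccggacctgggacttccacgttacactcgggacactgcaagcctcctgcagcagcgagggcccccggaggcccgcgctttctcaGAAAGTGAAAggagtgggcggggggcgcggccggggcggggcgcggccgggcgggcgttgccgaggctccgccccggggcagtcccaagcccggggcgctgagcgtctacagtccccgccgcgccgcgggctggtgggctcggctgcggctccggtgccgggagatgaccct
Aff1 (chr5:103754323-103754622, plus strand): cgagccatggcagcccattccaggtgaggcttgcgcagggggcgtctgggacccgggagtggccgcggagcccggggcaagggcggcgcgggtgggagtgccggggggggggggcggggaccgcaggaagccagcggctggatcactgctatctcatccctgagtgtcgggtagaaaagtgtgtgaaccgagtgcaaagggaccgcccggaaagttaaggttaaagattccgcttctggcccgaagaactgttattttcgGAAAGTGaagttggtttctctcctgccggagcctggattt
Tcirg1 (chr19:3905181-3905480, minus strand): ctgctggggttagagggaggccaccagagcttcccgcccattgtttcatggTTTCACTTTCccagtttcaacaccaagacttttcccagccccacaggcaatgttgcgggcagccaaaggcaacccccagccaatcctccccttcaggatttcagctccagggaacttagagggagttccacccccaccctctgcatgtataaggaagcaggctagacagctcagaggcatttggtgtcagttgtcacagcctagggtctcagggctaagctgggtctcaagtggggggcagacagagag
Erap1 (chr13:74639603-74639902, plus strand): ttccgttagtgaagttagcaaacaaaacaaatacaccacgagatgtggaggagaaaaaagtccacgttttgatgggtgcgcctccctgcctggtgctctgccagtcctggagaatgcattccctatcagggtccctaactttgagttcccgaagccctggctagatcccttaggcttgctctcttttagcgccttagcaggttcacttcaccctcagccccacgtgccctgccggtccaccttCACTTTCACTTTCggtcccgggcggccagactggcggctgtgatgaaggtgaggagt
In the Itpka promoter a core and an interferon element began together at position -122 from the start. In that of Tcirg1 the core on the opposite strand lay at position -196, overlapping an interferon element. In that of Erap1 a pair of overlapping cores with an interferon element between them ran up to and over the start. The Erap1 transcript, given below among antigen processing genes, rose from 3.08 ± 1.57 to 17.4 ± 2.44 RPM.

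Some of the genes called higher were next to each other in the genome. Of 173 genes called higher that had a position, 23 (13.3%) had an adjacent tested gene that was also called higher, against 312 of 8856 genes not called (3.52%). The longest run covered 5 neighbours at chr16:35694062-35972621 (GRCm38/mm10). Dirc2, which encodes a lysosomal membrane transporter, rose from 3.59 ± 2.22 to 17.3 ± 4.805 RPM. Hspbap1 was listed at 15.3, 15.7, 14.7 and 11.8 RPM in the controls and 56.7, 62.4, 63.7 and 41.5 RPM in the CKO-labelled libraries (1.88 ± 0.17, adjusted p = 3.31e-05). Parp14 and Parp9, members of the ADP-ribosyltransferase family, rose from 3.21 ± 1.28 to 14.4 ± 2.33 RPM and from 15.8 ± 3.29 to 32.6 ± 3.76 RPM. Dtx3l, an E3 ubiquitin ligase that forms a complex with PARP9, rose from 8.03 ± 1.66 to 17.9 ± 3.88 RPM, a call lost without control 3, CKO-labelled 3 or CKO-labelled 4. The annotations of Dtx3l and Parp9 overlap, and whether strand was used in counting is not given in the sources used here, so their reads could be shared.

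**Figure D3:**
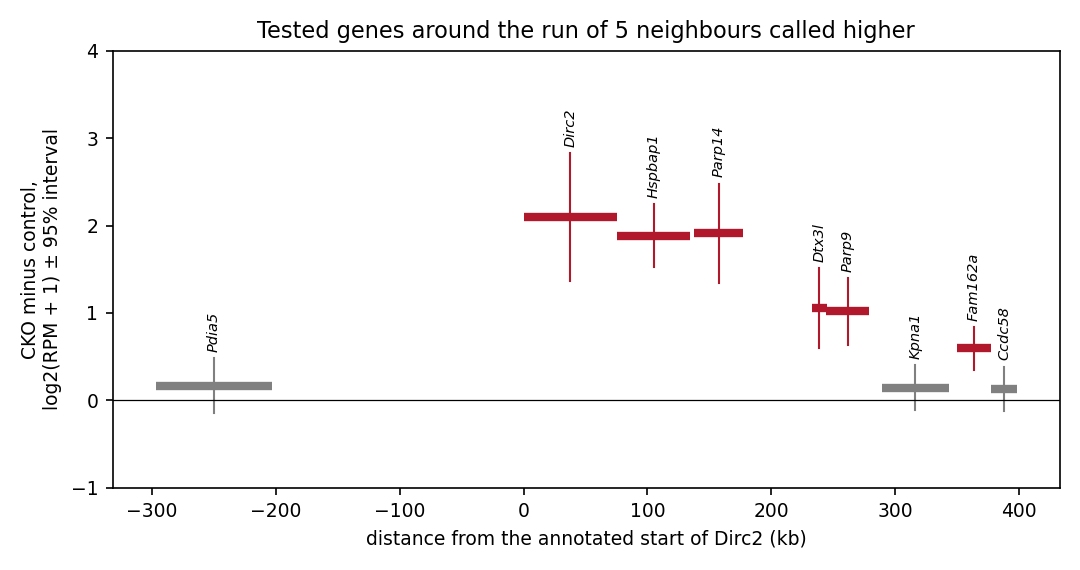
Log2 difference (CKO-labelled minus control, vertical lines 95% intervals) of each tested gene near the run of 5 neighbours, against distance in kb from the annotated start of Dirc2. Thick bars span each gene, red where called higher and grey where not called. Kpna1 and Pdia5, on either side of the run, have intervals that include 0, and Fam162a, beyond Kpna1, was called higher at 0.59.

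Beyond that run, Kpna1 (56.3 ± 6.77 and 62.2 ± 3.57 RPM) and Pdia5 (27.1 ± 2.98 and 30.6 ± 3.93 RPM) did not pass the test. A run of 3 at chr19:3851585-3912774 held Chka, Tcirg1 and Ndufs8. Another at chr7:45522917-45589710 held Ppp1r15a, Plekha4 and Bcat2, and 62 bases separated the first of these from the second. Pairs were Mt2 and Mt1, Reep3 and Jmjd1c, G3bp2 and Uso1, Zmynd8 and Ncoa3, Plin2 and Dennd4c, and Tubb3 and Def8. Reep3, which rose from 12.4 ± 1.34 to 29.1 ± 3.07 RPM, and the histone demethylase-family gene Jmjd1c, which rose from 34.3 ± 4.13 to 82.9 ± 7.62 RPM, overlap at their annotated ends. Umodl1 and the sterol exporter gene Abcg1 were the adjacent pair among genes called lower.

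Among immune genes the calls fell on antigen processing and on single interferon-linked genes. Nmi, an interferon-inducible partner of STAT proteins, was the 1 of 20 tested interferon and JAK-STAT genes that was called. Its controls were at 21.2, 21.5, 24.1 and 27.8 RPM and its CKO-labelled libraries at 145, 120.2, 144 and 118 RPM (2.43 ± 0.13, adjusted p = 2.48e-07). The median of that list was -0.01. Ifitm1 (766 ± 117 and 726 ± 51.7 RPM), Ifitm3 (405 ± 101.1 and 391 ± 44.95 RPM) and Socs2 (277 ± 18.6 and 258 ± 27.4 RPM) did not pass the test, nor did the signal transducers Stat3 (0.82 ± 0.27, adjusted p = 0.177) and Stat4 (1.00 ± 0.25, adjusted p = 0.0583). Of 9 tested antigen processing genes 3 rose, against 1.93% called higher of all genes tested. Without CKO-labelled replicates 1 and 4, 1 of the 9 was called. Erap1, which trims peptides in the endoplasmic reticulum, was listed at 0.883, 4.38, 3.06 and 4.004 RPM in the controls and 15.6, 15.5, 20.7 and 17.9 RPM in the CKO-labelled libraries (2.27 ± 0.31, adjusted p = 0.000879). Psmb10, an immunoproteasome subunit, rose from 7.303 ± 1.59 to 17.3 ± 2.196 RPM and Psme2, a proteasome activator subunit, from 272 ± 41.2 to 389 ± 14.7 RPM, a call lost without CKO-labelled 1 or 3. Psme1, the partner of PSME2 in that activator, was at 421 ± 72.4 and 456 ± 38.7 RPM and did not pass the test. Oasl2, Apobec3, Parp9, Parp14 and Dtx3l, given above, are known interferon-responsive genes that were not on the list, and they were grouped here after their values were seen.

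In nucleotide metabolism the calls fell on single enzymes and a transporter. Prps1, which makes phosphoribosyl pyrophosphate, the sugar donor of nucleotide synthesis, was listed at 3.83, 4.58, 3.502 and 4.24 RPM in the controls and 57.8, 53.9, 84.1 and 60.1 RPM in the CKO-labelled libraries (3.67 ± 0.18, adjusted p = 1.89e-07). CKO-labelled replicate 3 was the highest, and the gene had the smallest adjusted p of all genes tested. Of 31 tested nucleotide synthesis genes it alone was called higher, against 1.93% of all genes tested. Aprt, which salvages adenine with the same donor, was called lower, from 91.9 ± 16.7 to 60.3 ± 4.83 RPM, a call lost in 7 of the 8 fits that left out 1 library. The list's median log2 difference was -0.08, and 22 of the 31 had a 95% interval within 1.5-fold of no change, against 61.0% of all genes tested. Nme2 (1570.0 ± 163 and 1513 ± 133 RPM), Impdh2 (392 ± 26.6 and 349 ± 33.4 RPM) and Dtymk (339 ± 19.5 and 319 ± 22.5 RPM) did not pass the test. Outside the list, and named after their values were seen, Slc29a1, an equilibrative nucleoside transporter, rose from 58.3 ± 8.46 to 124 ± 16.01 RPM, and Upp1 is described above.

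Amino acid transport and branched-chain metabolism held single genes with large differences. Slc7a3, which imports arginine, lysine and ornithine, was listed at 16.8, 9.95, 15.98 and 8.71 RPM in the controls and 84.3, 68.8, 68.9 and 66.1 RPM in the CKO-labelled libraries (2.44 ± 0.20, adjusted p = 2.81e-05). It was the 1 of 12 tested amino acid transporters called, against 2.43% of all genes tested. Slc3a2 (237 ± 15.5 and 228 ± 25.5 RPM), Slc38a4 (108 ± 18.9 and 114 ± 5.16 RPM) and Slc38a2 (93.9 ± 18.4 and 96.2 ± 8.02 RPM) did not pass the test. Bcat1 and Bcat2, the cytosolic and the mitochondrial branched-chain aminotransferase, were on no list and both rose. Bcat1 was listed at 8.53, 6.76, 10.5 and 7.77 RPM in the controls and 20.7, 22.9, 39.03 and 23.2 RPM in the CKO-labelled libraries. Bcat2 was listed at 7.95, 5.77, 6.79 and 5.65 RPM in the controls and 20.4, 21.9, 33.01 and 18.9 RPM in the CKO-labelled libraries. CKO-labelled replicate 3 was the highest for both, with log2 differences of 1.52 ± 0.22 and 1.68 ± 0.21. Rragd, a Rag GTPase that carries amino acid signals to mTORC1, rose from 2.71 ± 1.09 to 15.4 ± 1.505 RPM and was also on no list. Of 25 tested serine, glycine, proline and one-carbon genes 0 were called by limma or by voom, run on recovered reads. Of these 25, 4 had an unadjusted p under 0.05, all lower, against 1125 of all 9384 genes tested in either direction.

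In lipid metabolism 2 of 26 tested fatty acid and phospholipid genes were called, each of them higher, against 2.43% called of all genes tested. Before adjustment 4 genes were lower and 2 higher with p under 0.05, and 18 of the 26 had differences below 0. Acly, which makes cytosolic acetyl-CoA from citrate, was listed at 53.3, 63.5, 51.01 and 50.4 RPM in the controls and 118, 109.7, 136 and 124 RPM in the CKO-labelled libraries (1.15 ± 0.11, adjusted p = 8.53e-05). Chka, a choline kinase of phosphatidylcholine synthesis, rose from 6.24 ± 2.88 to 16.2 ± 1.13 RPM, a call lost without control 3, CKO-labelled 2 or CKO-labelled 3. The list's median was -0.07, and Fasn (174 ± 30.2 and 147 ± 15.7 RPM), Acadm (212 ± 17.1 and 199 ± 14.2 RPM) and Acsl3 (200.4 ± 18.2 and 168 ± 8.598 RPM) did not pass the test. Of 24 sterol genes 0 were called by limma (1 higher and 2 lower at an unadjusted p under 0.05) and 1 by voom, with Fdps at 175 ± 34.7 and 182 ± 15.3 RPM, Sqle at 145 ± 11.1 and 131 ± 10.1 RPM and Hmgcs1 at 117 ± 13.2 and 111 ± 13.6 RPM. Lipid-related genes outside the lists, named after their values were seen, moved both ways. Pltp, a phospholipid transfer protein, rose from 8.77 ± 3.01 to 34.99 ± 2.25 RPM, and Acp6, a lysophosphatidic acid phosphatase, from 21.5 ± 3.99 to 74.5 ± 9.45 RPM. Degs1, a sphingolipid desaturase, fell from 148 ± 10.2 to 109.6 ± 3.78 RPM, a call lost in 6 of the 8 fits that left out 1 library.

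Few energy metabolism genes were called, a share no higher than the 2.43% of all genes tested. Of 53 respiratory chain and ATP synthase genes, Ndufs8, a complex I subunit, was the 1 called, rising from 58.6 ± 4.24 to 93.1 ± 10.1 RPM with an adjusted p of 0.00646. The other 52 were not called, and 51 of the 53 (96.2%) had intervals within 1.5-fold, close to the 95.4% of all genes at 200 RPM or more. Atp5b, the ATP synthase beta subunit, was at 2753 ± 117 and 2718 ± 205 RPM, with an interval of -0.20 to 0.16 on the log2 scale. Of 26 tricarboxylic acid cycle genes 0 were called by limma or voom (1 at an unadjusted p under 0.05), and 22 (84.6%) had intervals within 1.5-fold, among them Mdh2 (701 ± 44.2 and 667 ± 61.6 RPM). Of 26 glycolysis and pentose phosphate genes 0 were called by limma or voom, with 5 higher and 1 lower at an unadjusted p under 0.05. Hk2 (0.63 ± 0.17, adjusted p = 0.0773) and Hk1 (0.56 ± 0.15, adjusted p = 0.0885), which phosphorylate glucose, were the nearest to the threshold, and Gapdh was at 1516 ± 272 and 1857 ± 265 RPM. Up to 3 genes of this list were called in some other setting.

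The metallothioneins, small proteins that bind zinc and copper, rose together. Mt1 was listed at 65.6, 43.8, 70.9 and 51.3 RPM in the controls and 111, 172, 152 and 152 RPM in the CKO-labelled libraries (1.33 ± 0.17, adjusted p = 0.000456). CKO-labelled replicate 1 was the lowest of its group for both metallothioneins. Mt2 was listed at 138, 152, 224 and 223 RPM in the controls and 347, 458, 391 and 419.6 RPM in the CKO-labelled libraries (1.15 ± 0.15, adjusted p = 0.0007605). The genes are neighbours on chromosome 8. Of 26 tested genes on the list of glutathione, peroxiredoxin and metallothionein genes, the third called was Sod2, the mitochondrial superoxide dismutase (218 ± 21.5 to 295 ± 25.5 RPM), a call lost in 6 of the 8 fits that left out 1 library. In all, 9 genes of the list had an unadjusted p under 0.05, each higher in the CKO-labelled libraries. Over all 9384 genes tested, 1125 had such a p in either direction, and 2.43% were called. The list's median was 0.09. Sod1 (1560.1 ± 308 and 2020.2 ± 151 RPM), Prdx1 (1317 ± 265 and 1342 ± 134 RPM) and Gpx1 (784 ± 28.6 and 828 ± 76.3 RPM) did not pass the test.

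**Figure D4:**
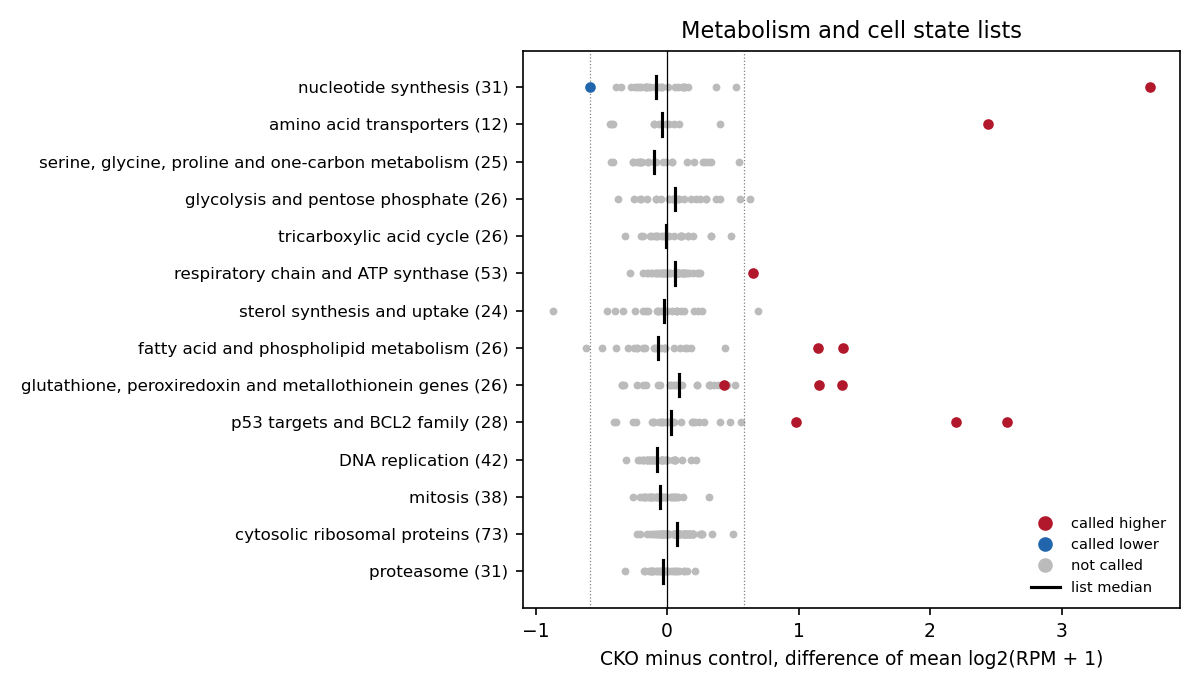
Difference of mean log2(RPM + 1), CKO-labelled minus control, for each tested gene (point) of the metabolism and cell state lists, with the number tested in parentheses. Red points were called higher, blue lower and grey neither, thick black bars are list medians and dotted lines mark 1.5-fold. Medians lie between -0.10 and 0.09, and single genes such as Prps1 (3.67) stand far from their list.

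Signalling lists held from 1 to 5 called genes each, 5% to 35.7% of those tested in a list, against 2.43% of all genes tested. The lists were written with earlier results of these data known, so this contrast is a description and no support. Their medians lay between -0.06 and 0.15. In TGF-β and Nodal signalling 2 of 18 tested genes rose. Tgif1, a homeobox repressor of SMAD targets, was listed at 12.4, 30.2, 9.41 and 16.3 RPM in the controls and 102, 74.1, 95.9 and 91.9 RPM in the CKO-labelled libraries (2.46 ± 0.26, adjusted p = 0.000135). Control replicate 2 was the highest control. Tdgf1 encodes CRIPTO, the co-receptor of Nodal. It was listed at 17.1, 20.3, 19.04 and 18.1 RPM in the controls and 44.8, 70.3, 63.1 and 56.5 RPM in the CKO-labelled libraries (1.59 ± 0.15, adjusted p = 7.71e-05). Its controls lay close together. The Nodal antagonist Lefty2 was at 125 ± 13.6 and 118 ± 18.8 RPM and the corepressor gene Ski at 122 ± 10.5 and 114 ± 5.48 RPM, and neither passed the test.

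In BMP signalling, which induces PGCs at their origin, the ligand Bmp4 rose from 5.54 ± 0.547 to 13.96 ± 5.799 RPM, a call lost in 6 of the 8 fits that left out 1 library. Gata2, a transcription factor that responds to BMP, was the 1 of 16 tested genes called lower (2 were lower at an unadjusted p under 0.05), and fell from 36.4 ± 8.63 to 13.8 ± 4.502 RPM (-1.36 ± 0.23, adjusted p = 0.00519). The BMP target Id3 was at 240.5 ± 22.9 and 245 ± 9.21 RPM, with an interval of -0.17 to 0.23. In Wnt signalling 2 of 22 genes rose. Tcf7l1, a repressor of Wnt targets, was listed at 13.2, 29.04, 16.4 and 17.7 RPM in the controls and 58.8, 37.2, 49.9 and 43.97 RPM in the CKO-labelled libraries (1.31 ± 0.22, adjusted p = 0.00446). Lgr4, an R-spondin receptor, rose from 111 ± 9.35 to 179 ± 13.3 RPM (0.68 ± 0.10, adjusted p = 0.00155). Ctnnb1, beta-catenin, was at 782 ± 98.9 and 758 ± 66.8 RPM and did not pass the test.

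In KIT and PI3K signalling 3 of 27 tested genes were called, each of them lower, and all of these calls were lost without CKO-labelled replicates 1 and 4. Kit, the receptor that PGCs need for survival and migration, was listed at 267, 229, 233 and 264 RPM in the controls and 200.2, 164, 193 and 183 RPM in the CKO-labelled libraries (-0.42 ± 0.10, adjusted p = 0.035997). The groups did not overlap, but the call was lost in 7 of the 8 fits that left out 1 library. Pik3cd, a catalytic PI3K subunit, fell from 85.2 ± 6.95 to 57.7 ± 6.94 RPM, a call lost in 4 of those fits. Foxo1, a transcription factor inhibited by AKT, was listed at 124, 135, 120.0 and 106 RPM in the controls and 80.6, 80.1, 86.96 and 62.2 RPM in the CKO-labelled libraries (-0.64 ± 0.12, adjusted p = 0.0119), and was called in all 8. Rheb (229 ± 37.1 and 219 ± 33.7 RPM), Eif4ebp1 (192 ± 48.2 and 225 ± 45.5 RPM) and Mtor (153 ± 8.11 and 147 ± 16.8 RPM) did not pass the test. Of 28 FGF and ERK genes Spry2, a feedback inhibitor, was called higher and Dusp4, an ERK phosphatase, lower. Spry2 went from 32.7 ± 12.96 to 67.6 ± 18.2 RPM, with groups that overlapped. Dusp4 was listed at 192, 184, 181 and 208 RPM in the controls and 156, 151, 129 and 140.1 RPM in the CKO-labelled libraries. These calls were lost in 6 and 8 of the 8 fits. Etv5 (337 ± 32.7 and 308 ± 17.2 RPM) did not pass the test.

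Retinoic acid signalling has been linked to the entry of female germ cells into meiosis. Of 9 tested genes 2 rose. Crabp2, one of them, encodes a cytoplasmic binding protein of retinoic acid and rose from 5.07 ± 0.637 to 19.6 ± 7.57 RPM. Crabp1 (27.7 ± 10.7 and 20.2 ± 5.53 RPM) and Aldh1a2 (8.904 ± 3.64 and 14.2 ± 16.8 RPM) did not pass the test. Tead2, the DNA-binding partner of YAP, was the 1 of 14 Hippo genes called, rising from 11.45 ± 4.46 to 54.2 ± 13.4 RPM, while Yap1 was at 77.1 ± 17.1 and 85.4 ± 10.2 RPM. In Notch and Hedgehog signalling (12 tested) the ligand Jag1 rose from 5.15 ± 1.99 to 17.98 ± 9.81 RPM, a call lost without control 3, control 4 or CKO-labelled 1. The Notch effector Hey1 fell from 178 ± 19.1 to 122 ± 10.8 RPM, a call lost without CKO-labelled 2 or 3.

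Guidance and matrix genes moved both ways. Of 14 tested ephrin, semaphorin and chemokine genes 3 rose and 2 fell, against 2.43% called of all genes tested. All of these calls were lost without CKO-labelled replicates 1 and 4, the libraries with most somatic signal, and the list's median went from 0.15 to -0.17. Nrp2, a semaphorin and VEGF-C co-receptor, rose from 4.08 ± 1.26 to 13.6 ± 6.34 RPM, a call lost without control 3. Epha2 fell from 18.3 ± 1.57 to 9.25 ± 1.62 RPM, lost without control 4, CKO-labelled 1 or CKO-labelled 2. Ephb4 and Sema6a rose and Sema4d fell (8.29 ± 2.56 to 17.5 ± 3.39 RPM for the first and 64.2 ± 4.12 to 40.3 ± 10.02 RPM for the last), calls each lost in 6 of the 8 fits that left out 1 library. Vcan, the proteoglycan versican, was listed at 6.18, 8.75, 3.94 and 4.48 RPM in the controls and 39.2, 20.47, 27.3 and 51.8 RPM in the CKO-labelled libraries (2.35 ± 0.29, adjusted p = 0.000395). It was highest in CKO-labelled replicates 4 and 1, those with most somatic signal, and was still called without both. Npnt, an integrin ligand, fell from 72.5 ± 11.9 to 39.6 ± 12.8 RPM, a call lost in 6 of those fits, and Fn1 (249.2 ± 106 and 324 ± 63.8 RPM) did not pass the test.

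**Figure D5:**
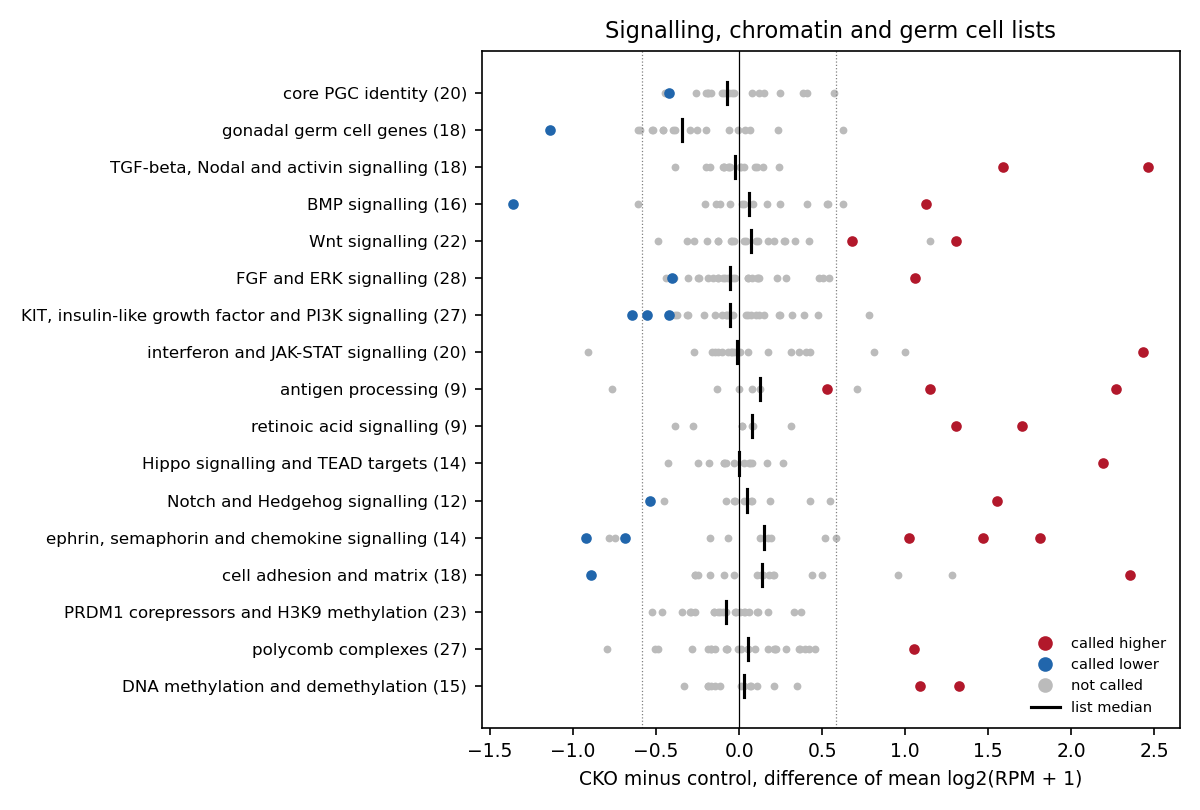
Difference of mean log2(RPM + 1), CKO-labelled minus control, for each tested gene (point) of the signalling, chromatin and germ cell lists, with the number tested in parentheses. Red points were called higher, blue lower and grey neither, thick black bars are list medians and dotted lines mark 1.5-fold. The median of gonadal germ cell genes is -0.34, and the other medians lie between -0.08 and 0.15.

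Outside the lists the rule for named genes gave further genes called higher with control means of at least 10 RPM. Lrp11, an LDL receptor-related protein, rose from 14.7 ± 2.68 to 45.1 ± 2.71 RPM, and Rnh1, the ribonuclease inhibitor, from 26.3 ± 6.94 to 70.97 ± 4.81 RPM. Cdk2, a kinase of S phase entry, rose from 13.1 ± 3.598 to 33.4 ± 5.53 RPM. Its log2 difference was 1.31 ± 0.20 (adjusted p = 0.00209). Cdk6, another cyclin-dependent kinase and named after its values were seen, rose from 7.14 ± 3.77 to 19.1 ± 3.66 RPM, a call lost in 4 of the 8 fits that left out 1 library. G3bp2, a stress granule protein, was listed at 71.8, 78.2, 63.04 and 61.7 RPM in the controls and 186, 164, 166 and 147 RPM in the CKO-labelled libraries (1.26 ± 0.11, adjusted p = 3.31e-05). Capsl rose from 14.3 ± 4.51 to 33.5 ± 4.24 RPM and Def8 from 17.2 ± 6.09 to 41.2 ± 13.6 RPM, the second call lost in 6 of the 8 fits.

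PRDM1 is known to act through corepressors and histone-modifying enzymes. Of 23 tested PRDM1 corepressor and H3K9 methylation genes 0 were called by limma or by voom (1 higher and 1 lower at an unadjusted p under 0.05), and 1 was called higher under a replicate block. The share called of all genes tested was 2.43%. The most abundant were Trim28 at 738 ± 113 and 724 ± 91.2 RPM, Hdac2 at 454 ± 73.4 and 422 ± 40.6 RPM and Hdac1 at 419 ± 91.7 and 422 ± 42.6 RPM. Among 27 polycomb genes Phc2, a PRC1 subunit, was the 1 called, rising from 25.2 ± 6.97 to 52.3 ± 6.78 RPM. At an unadjusted p under 0.05, 6 of the 27 were higher and 3 lower, against 1125 of all 9384 genes tested in either direction. Under a replicate block 1 polycomb gene was called higher and 3 lower, and without CKO-labelled replicates 1 and 4 the list had 0 calls. Ezh2 (287 ± 45.2 and 271 ± 24.02 RPM), Rbbp7 (408 ± 84.1 and 383 ± 48.6 RPM) and Mtf2 (257 ± 46.1 and 253 ± 12.9 RPM) did not pass the test. Of 15 DNA methylation and demethylation genes 2 rose. Dnmt3a, a de novo DNA methyltransferase, was listed at 27.96, 25.3, 31.96 and 27.1 RPM in the controls and 54.1, 52.5, 61.7 and 76.9 RPM in the CKO-labelled libraries (1.09 ± 0.15, adjusted p = 0.0007898). CKO-labelled replicate 4 was the highest, and the call held without replicates 1 and 4. Uhrf1, which brings the maintenance methyltransferase DNMT1 to newly copied DNA and is known to be low in PGCs, rose from 4.48 ± 1.19 to 13.2 ± 5.64 RPM. That call was lost without control 3, CKO-labelled 2 or CKO-labelled 4. Dnmt1 itself was at 192 ± 12.9 and 178 ± 11.502 RPM and did not pass the test.

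Of 28 p53 target and BCL2 family genes 3 rose, against 1.93% called higher of all genes tested. Pmaip1 (NOXA), a BH3-only protein, was listed at 1.47, 5.17, 3.94 and 1.65 RPM in the controls and 23.7, 17.9, 16.1 and 10.01 RPM in the CKO-labelled libraries (2.19 ± 0.34, adjusted p = 0.002296). CKO-labelled replicate 1 was the highest and 4 the lowest. Bak1, also called higher, is given above, and both Pmaip1 and Bak1 were called in each of the 8 fits that left out 1 library. The list's median was 0.03, and Mcl1 (191 ± 9.57 and 177 ± 14.3 RPM), Mdm2 (167 ± 26.1 and 163 ± 2.44 RPM) and Bid (122 ± 9.96 and 114 ± 10.7 RPM) did not pass the test.

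Each of the lists of germ cell genes had 1 gene called, and both calls were lower, against 0.501% called lower of all genes tested. Of 20 core PGC identity genes Kit was the 1 called. Its call was lost without CKO-labelled replicates 1 and 4, and in 7 of the 8 fits that left out 1 library. At an unadjusted p under 0.05, 3 of the 20 were higher and 5 lower, against 1125 of all 9384 genes tested in either direction. The 95% interval lay within 1.5-fold for 11 of the 20, against 61.0% of all genes tested. Pou5f1 (703 ± 51.1 and 687 ± 148 RPM), Dppa5a (2723 ± 317 and 3002 ± 75.6 RPM) and Dppa3 (1883 ± 236 and 1820.1 ± 138 RPM) did not pass the test. Of 18 tested genes that rise in gonadal germ cells, Sohlh2, a regulator of germ cell differentiation, was the 1 called. It was listed at 64.2, 73.6, 46.2 and 73.02 RPM in the controls and 36.2, 26.8, 28.7 and 22.5 RPM in the CKO-labelled libraries (-1.14 ± 0.18, adjusted p = 0.00267). The list's median was -0.34 against -0.01 for all genes tested, and 14 of the 18 were lower in the CKO-labelled libraries. That median was -0.18 without CKO-labelled replicates 1 and 4. Ddx4 (279.7 ± 79.9 and 201 ± 44.05 RPM), Dazl (228 ± 129.7 and 139.6 ± 50.2 RPM) and Stk31 (117 ± 35.3 and 87.2 ± 16.98 RPM), further members, did not pass the test. The 95% interval of Dazl ran from -1.40 to 0.19 on the log2 scale.

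Genes called lower were mostly of moderate size and less steady. Those that the rule named at ranks 11 to 22 fell by 0.74 to 0.90 on the log2 scale. Pdpn, podoplanin, a membrane mucin-like glycoprotein, was listed at 60.9, 71.4, 53.6 and 76.3 RPM in the controls and 41.3, 36.4, 34.7 and 42.5 RPM in the CKO-labelled libraries (-0.74 ± 0.14, adjusted p = 0.0106). Rab6b, a Golgi GTPase, fell from 67.02 ± 6.31 to 37.5 ± 7.12 RPM and Lrrfip1 from 59.4 ± 11.4 to 31.3 ± 5.38 RPM. These 3 were called in each of the 8 fits that left out 1 library. The calls of Bcor, a corepressor of a noncanonical polycomb complex (55.4 ± 5.41 to 33.03 ± 7.12 RPM), Ceacam10, Khdc1a, Scgn, Sept8, Wdr34 and Zfp280c were lost in 4 to 7 of them. Khdc1a has close paralogs, and its reads may be shared with them.

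Large parts of the transcriptome stayed within narrow limits, and how many genes could be bounded depended on their level. A gene is counted as bounded where the 95% interval of its change lies within 1.5-fold in both directions, which held for 5724 of 9384 genes (61.0%). Within 2-fold it held for 8573 (91.4%). The share was 10.6% of 1466 genes with a mean under 10 RPM over the 8 libraries, 67.4% of 2549 genes at 20 to 50 RPM and 95.4% of 874 genes at 200 RPM or more. Calls upward made up 2.73% of the first and 0.801% of the last of these bins. For a gene neither called nor bounded, the interval did not exclude a change above 1.5-fold.

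Housekeeping machinery was bounded almost throughout. Of 73 cytosolic ribosomal protein genes 69 (94.5%) were bounded, as were 40 of 42 DNA replication genes (95.2%), 34 of 38 mitosis genes (89.5%) and 29 of 31 proteasome genes (93.6%), and limma and voom called 0 in each of these lists. At an unadjusted p under 0.05 they held 2, 1, 1 and 1 genes, against 1125 of all 9384 genes tested. These lists are of high expression, and the bounded share rises with level as above. Pcna, the replication clamp, was at 1095 ± 77.5 and 999 ± 62.4 RPM, with an interval of -0.31 to 0.05. Mcm7 (674 ± 11.7 and 672 ± 67.7 RPM), Top2a (682 ± 39.4 and 649 ± 53.8 RPM), Ccna2 (550.2 ± 67.1 and 566 ± 29.7 RPM) and Ccnb1 (529 ± 27.3 and 521 ± 31.6 RPM) were bounded too. Rpl5 was at 5649.9 ± 503 and 5476 ± 389 RPM and the proteasome gene Psma2 at 859.5 ± 62.2 and 765 ± 71.9 RPM.

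Because only the CKO-labelled embryos carried the transgene built on Dppa3, the genes beside Dppa3 on chromosome 6 were read separately. Of 10 such genes 5 were tested, and 0 were called by limma in any setting (1 at an unadjusted p under 0.05). The share called of all genes tested was 2.43%, so the lack of calls among so few genes is no result about them. Of the 5, 2 were bounded, against 61.0% of all genes tested. Dppa3 was listed at 2196, 1638, 1908 and 1789.6 RPM in the controls and 1734, 1804, 2019.7 and 1723 RPM in the CKO-labelled libraries, with an interval of -0.26 to 0.17. Nanog, a pluripotency factor, was listed at 98.9, 108, 173 and 141 RPM in the controls and 136, 186, 195 and 165 RPM in the CKO-labelled libraries (0.41 ± 0.17, adjusted p = 0.324). The glucose transporter gene Slc2a3 was at 119 ± 24.1 and 146 ± 21.8 RPM and did not pass the test.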

How the data were processed

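Values were used as the authors deposited them, in RPM per gene (Entrez identifiers), relative to the gene-assigned reads of a library. The submitters' processing notes name cutadapt 1.3, TopHat 1.4.1, Cufflinks 2.2.0 and mm10. Depths came from the spacing of low values: in each library 99.7% to 99.8% of genes above 0 fell on whole reads, to within 0.05. Since 32 to 48 genes per library were not whole, the planned edgeR count test was not run.

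Genes with at least 5 RPM in at least 4 of the 8 libraries were tested with limma 3.58.1 (R 4.3.3; lmFit, then eBayes with a variance trend) on log2(RPM + 1), adjusted over all 9384 genes. A gene was bounded where its 95% interval lay within 1.5-fold. The method was tested on simulated data. Promoters and positions are from RefSeq GRCm38.p6. Alternatives changed the pseudocount, filter, scaling, variance model and libraries. Voom on recovered reads, rounded to whole numbers, was added after seeing the data.

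The comparison, the 39 gene lists and all members were chosen with earlier results of these data known. Named genes were Prdm1; the 12 highest near-silent genes; ranks 11 to 22 by size among genes called higher and among genes called lower with control means of at least 10 RPM; each list's called members with up to 3 of its most abundant others; and genes beside Dppa3. The remaining near-silent genes, chromosomal neighbours, Stat3, Stat4, Hk1, Hk2 and genes on no list were named after their values were seen. A few genes named by this rule are not reported here. Of 1083 list entries 1081 matched the table.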

Additional observations from a re-analysis of the deposited data

Results flagged for a closer look

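In 17 of the 346 groups of 4 libraries examined, for 173 named genes, 1 library lay farther from its 3 companions than Dixon's 95% limit for its gap as a share of the range. Chance flags about 1 in 20 such groups. CKO-labelled replicate 4, the library with most somatic signal, was the distant library in 4 of them, control replicates 3 and 4 in 3 each, control replicates 1 and 2 and CKO-labelled replicate 1 in 2 each, and CKO-labelled replicate 2 in 1.

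Among genes called higher, Tead2 was at 74.35 RPM in CKO-labelled replicate 4 against 47.1 to 48.2 RPM in the other CKO-labelled libraries, and Bak1 at 13.94 RPM there against 10.9 to 11.2 RPM. Slc7a3 was at 84.3 RPM in CKO-labelled replicate 1 against 66.1 to 68.9 RPM. Control replicate 2 was the high library for Sema6a, at 4.575 RPM against 0.471 to 0.883 RPM, and for Armcx1, at 4.973 RPM against 0.219 to 0.942 RPM.

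Low values stood out for Stk31 (61.84 RPM) and Top2a (568.7 RPM) in CKO-labelled replicate 4. Trim28 was low in CKO-labelled replicate 1 (588.5 RPM) and Psme1 in CKO-labelled replicate 2 (398.2 RPM). In the controls, Mtf2 was high (325.5 RPM) and Yap1 low (51.5 RPM) in replicate 1. Control replicate 3 was high for Psmb4 (756.8 RPM) and Ifitm3 (556.2 RPM) and lists Apobec1 at 0 RPM. Control replicate 4 was high for Mcm7 (691.3 RPM) and Aldh1a2 (14.37 RPM) and low for Mdh1 (275.6 RPM).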

How the results depend on the processing

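No called gene changed direction under any of 19 alternatives, and 83 of the 228 calls (74 higher, 9 lower) held in all of those that gave a value. With a pseudocount of 10 RPM, 41 called genes changed at least 2-fold (40 higher, 1 lower). With no filter, 18896 genes were tested: 21 were called lower, 6 of them at least 2-fold, 33 near-silent genes were called higher and 2 near-silent in the CKO-labelled group lower, and 9185 genes were bounded. A filter at 20 RPM left 139 calls (108 higher, 31 lower), 57 of at least 2-fold (52 higher, 5 lower) and 0 near-silent genes, since it removes low genes. A limit of 4 RPM for near-silent genes gave 32 called higher and 1 lower. With the sum of gonadal somatic markers, on a log2 scale, as a covariate 175 genes were called, 146 higher and 29 lower. Of these calls 170 were also made in the main fit. Without control 1 and CKO-labelled 4 together 18 genes were at least 2-fold lower. Without CKO-labelled 1 and 4 there were 98 calls (78 higher, 20 lower), 78 of them at least 2-fold, of which 63 were higher. Leaving out 1 library at a time gave 137 to 204 calls, 119 to 162 higher and 18 to 42 lower, with 7 to 17 at least 2-fold lower. Causes of these shifts were not tested.

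A replicate block gave 314 calls, 232 higher and 82 lower. The labels do not say what libraries of the same number share, so the main fit did not pair them. Deviations of same-numbered libraries from their group means correlated at 0.24, 0.02, 0.25 and 0.18 for numbers 1 to 4. Controls 1, 3 and 4 each correlated best with the CKO-labelled library of their own number, and control 2 with CKO-labelled 3 (0.15), a hint from the data and not from the design. Voom on recovered reads, added later, gave 227 calls. An edgeR test on recovered reads was planned and not run, because some values were not whole reads. Depth limits low genes most: 10.6% of genes under 10 RPM were bounded.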
